A study of Rattus norvegicus with 47 samples.

Results

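Bdnf, Ntf3 and the receptor genes Ntrk2 and Ntrk3 were followed across rat brain after injury through every probe set that the array's annotation assigns to exactly 1 of these 4 genes. There were 13 such probe sets of 8799 on the array, and 4 genes of the 4737 that its probe sets name singly: 7 for Bdnf and 2 each for Ntf3, Ntrk2 and Ntrk3. The 47 arrays, each hybridised with total RNA, formed 6 groups. These were ipsilateral and contralateral hippocampus at 4 h (7 and 9 arrays), ipsilateral and contralateral cortex at 24 h (8 and 8), and ipsilateral and contralateral cortex at 4 h (7 and 8). The label "HC" was read as hippocampus, and the hours count from the injury. The labels give side, region, hours and Trizol extraction. They do not give the type of injury, the strain or age of the rats, or which animals, if any, were sham-operated, so ipsilateral against contralateral does not mean injured against intact tissue. It is also not stated whether each array came from its own animal, or which arrays hold both sides of 1 animal. The p-values therefore cover the spread among these samples, which may in part be technical.

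BDNF and neurotrophin-3, the product of Ntf3, are secreted growth factors of the neurotrophin family that support the survival of neurons and the growth and plasticity of their synapses. BDNF acts mainly through TrkB, encoded by Ntrk2, and neurotrophin-3 mainly through TrkC, encoded by Ntrk3. Both receptors are tyrosine kinases, and both genes also give rise to shorter forms without the kinase domain. In rodents the short form of TrkB is abundant in astrocytes, and Ntf3 is known from the granule cells of the dentate gyrus. Bdnf has several 5' exons, each with its own promoter, joined to a common coding exon, and neuronal activity raises transcription from some of these promoters.

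The 4 genes lie on 4 rat chromosomes in the RefSeq annotation of build GRCr8. Bdnf (gene ID 24225) is at chr3:116619633-116670212, Ntf3 (gene ID 81737) at chr4:160601161-160670623, Ntrk2 (gene ID 25054) at chr17:5560558-5875899 and Ntrk3 (gene ID 29613) at chr1:141526192-141913575. Promoter windows, from 250 bases before a transcript's start to 50 after it, were listed by RefSeq for Bdnf (6 windows) and Ntf3 (3 windows). They were searched on both strands for CGTCA, the core of the cAMP response element through which CREB drives activity-dependent transcription. They were also searched for the full palindrome TGACGTCA and for TCACGTCA, the letters of the calcium-responsive element described in an activity-regulated Bdnf promoter of the rat. The core was found in 1 of the 6 Bdnf windows and in 0 of the 3 Ntf3 windows, against 21.2% of all 33469 windows. In the Bdnf window it began at position -35 from the start and was part of the letters TCACGTCA. These letters were chosen from a described rat Bdnf promoter, so the match was known beforehand. That 0.4% of all windows hold them is therefore no measure of enrichment. The full palindrome was in none of the 9 windows of either gene, against 1.83% of all windows. The windows are not all distinct. The Ntf3 windows from 160670573 and 160670574 nearly coincide, and the Bdnf windows from 116639552 and 116639608 overlap. The Bdnf window with the core (chr3:116637608-116637907, plus strand) and the Ntf3 window farthest upstream (chr4:160670574-160670873, minus strand) are shown because these ligands carried the largest differences among the 4 genes. Capitals mark the core CGTCA. A match in letters is a description of the sequence, and the annotation used does not tie any probe set to a promoter.
Bdnf: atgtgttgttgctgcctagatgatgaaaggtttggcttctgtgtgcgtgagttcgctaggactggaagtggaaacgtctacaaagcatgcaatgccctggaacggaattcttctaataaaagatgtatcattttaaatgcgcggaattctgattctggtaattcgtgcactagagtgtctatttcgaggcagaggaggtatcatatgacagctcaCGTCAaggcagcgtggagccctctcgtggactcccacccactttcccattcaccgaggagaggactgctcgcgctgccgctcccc
Ntf3: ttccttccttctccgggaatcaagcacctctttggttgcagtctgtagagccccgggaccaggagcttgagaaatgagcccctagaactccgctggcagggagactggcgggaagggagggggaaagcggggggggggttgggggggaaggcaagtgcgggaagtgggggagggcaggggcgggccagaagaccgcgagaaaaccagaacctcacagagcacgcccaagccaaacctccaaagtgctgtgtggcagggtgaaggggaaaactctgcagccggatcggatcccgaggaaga

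A signal is the deposited intensity of a probe set on a linear scale. Before log2 was taken, signals under 185.8, the 25th percentile of all values, were raised to it, and this value is called the floor. Log2 differences are those of floored values, so they understate a change that reaches the floor. A difference is said to rise, fall or pass when limma's moderated test, adjusted by Benjamini-Hochberg over all 7503 tested probe sets, gave an adjusted p under 0.05. All 13 probe sets were tested. They were not equally well measured: 8 were above the floor on 44 to 47 of the 47 arrays, and 5 on only 17 to 24. The dim ones were Bdnf S71196mRNA_s_at and S71201mRNA_at, Ntf3 E03082cds_s_at, Ntrk2 M55293_at and Ntrk3 S62933_i_at. Levels of different probe sets are not set against each other, since each has its own response.

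The tissue labels were set beside marker lists. These lists were chosen with earlier results of these data known, so they are no independent check of the labels. Of 8 hippocampal markers tested, 7 were higher in hippocampus than in cortex on each side, with a median log2 difference of 1.88 on the ipsilateral and 1.65 on the contralateral side. Of 3 cortical markers, 3 were lower in ipsilateral and 2 in contralateral hippocampus. Between regions 27.5% of all tested probe sets passed on the ipsilateral and 33.7% on the contralateral side. Correlations between arrays of 1 group ran from 0.944 to 0.985. The Gapdh and beta-actin 3' to 5' ratios, measures of RNA integrity, had lower medians in hippocampus than in cortex at 4 h. Gapdh was 1.05 to 1.19 against 1.08 to 1.33 on the ipsilateral and 1.02 to 1.17 against 1.14 to 1.35 on the contralateral side. Beta-actin was 1.16 to 1.43 against 1.39 to 1.89 and 1.06 to 1.36 against 1.33 to 1.71. Their part in the region differences below was not tested. Array 23, labelled contralateral hippocampus, has a number that breaks the run of numbers of its side and was kept as labelled. Arrays 37 to 40 of ipsilateral cortex at 24 h stood apart from the other 4 arrays of their group in microglia and macrophage markers, and their values are given beside the results they touch. The summed signal of these markers also split in ipsilateral hippocampus. Arrays 17 to 20 were at 5368 to 6454, and arrays 21, 22 and 24 at 9180 to 9772. Array 23 was at 9852, the highest of contralateral hippocampus. The part of this split in the hippocampal results was not tested. In these bulk samples a lower signal from fewer cells of a type and from less RNA per cell cannot be told apart.

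More of the neurotrophin and receptor probe sets passed between regions than between sides. In ipsilateral hippocampus at 4 h, 5 of the 13 probe sets differed from ipsilateral cortex, and 27.5% of all tested probe sets did so. In contralateral hippocampus 4 of 13 differed from contralateral cortex, against 33.7% of all. Both counts include Ntf3 E03082cds_s_at, which was above the floor on enough arrays to be tested only through its hippocampal arrays, so its region tests support nothing here. In ipsilateral cortex 2 of 13 differed between 24 h and 4 h, against 19.3% of all, and in contralateral cortex 0 of 13 did, against 21.5% of all. In hippocampus 2 of 13 differed between the sides, against 16.1% of all. In cortex 0 of 13 differed between the sides at 4 h and 0 of 13 at 24 h, where 0% and 0.107% of all probe sets passed. At an unadjusted p under 0.05 the cortical counts were 0 of 13 at 4 h and 2 of 13 at 24 h, and 558 and 575 of all 7503. The members' shares, 0% to 38.5%, lay on both sides of those of all probe sets, and a share near the background is no result about these genes.

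**Figure D1:**
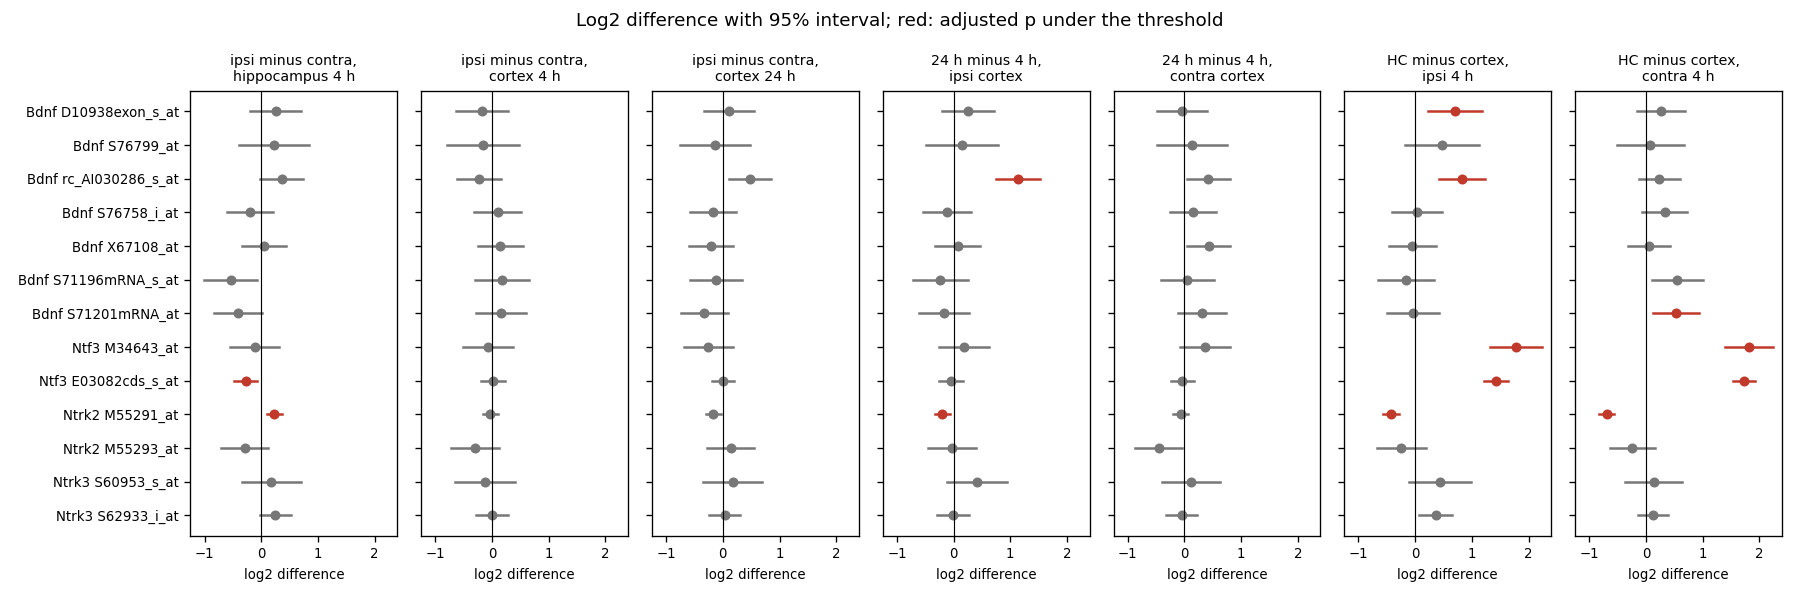
Log2 differences of the 13 probe sets (rows) in 7 comparisons (panels), with points for the estimate of the linear model and lines for its 95% interval; red marks an adjusted p under 0.05. Both Ntf3 probe sets lie far to the right of 0 in the hippocampus-minus-cortex panels and Ntrk2 M55291_at to the left, while the panels of cortical side differences hold no red point. Ntf3 E03082cds_s_at is a description only in the region panels, since its hippocampal arrays alone brought it past the filter.

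Ntf3 was about 3-fold higher in hippocampus than in cortex at 4 h on both sides of the brain. M34643_at, its brighter probe set, measured 2225 to 3595 (median 2988) in ipsilateral hippocampus, against 443 to 1313 (median 914) in ipsilateral cortex at 4 h. On the contralateral side it measured 2553 to 3836 (median 3067) in hippocampus, against 292 to 1769 (median 1094) in cortex at 4 h. Every hippocampal array was above every cortical array of its side. The log2 difference was 1.78 on the ipsilateral side (SE 0.23, 3.43-fold, limma adjusted p = 3.16e-08) and 1.82 on the contralateral side (SE 0.21, 3.54-fold, limma adjusted p = 1.24e-09).

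The second Ntf3 probe set, E03082cds_s_at, is given as a description, since only its high hippocampal signals brought it past the filter on dim probe sets. It measured 432 to 691 (median 517) in ipsilateral hippocampus, against 58.5 to 235 (median 84.8) in ipsilateral cortex at 4 h. It measured 421 to 783 (median 631) in contralateral hippocampus, against 24.9 to 224 (median 67.3) in contralateral cortex at 4 h. All hippocampal arrays were above the floor, and only 1 array of each of these cortical groups was, so the differences are understated. On the log2 scale the difference was 1.43 on the ipsilateral side (SE 0.11) and 1.72 on the contralateral side (SE 0.10). These SEs are narrowed by the cortical arrays held at the floor. The hippocampal marker list moved with Ntf3: its summed signal was 24661 to 29507 in ipsilateral hippocampus, against 8005 to 9042 in ipsilateral cortex at 4 h. The choroid plexus and meninges list was also higher in ipsilateral hippocampus for 2 of 6 markers and in contralateral hippocampus for 3 of 6, and its part in the Ntf3 difference was not tested. Between regions 27.5% of all tested probe sets passed on the ipsilateral and 33.7% on the contralateral side.

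Between the sides Ntf3 differed little. In hippocampus E03082cds_s_at passed narrowly, with a log2 difference of -0.28 between ipsilateral and contralateral arrays (SE 0.10, limma adjusted p = 0.0497), and 6 of 7 ipsilateral arrays lay below the contralateral median. The ranges overlapped. Leaving out any of 41 single arrays of the 47 ended this call, with adjusted p up to 0.124. It was also lost with a floor at the 10th percentile, no floor, quantile normalization (-0.093), the compared groups alone and a covariate for each array's low signals, with limma adjusted p of 0.189 to 0.588. M34643_at gave -0.12 (95% interval -0.55 to 0.32, limma adjusted p = 0.748). In cortex at 24 h M34643_at measured 732 to 1304 (median 967) on the ipsilateral side, against 957 to 1370 (median 1194) on the contralateral side, a log2 difference of -0.25 (95% interval -0.69 to 0.18, limma adjusted p = 0.873). In cortex at 4 h it gave -0.07 (95% interval -0.52 to 0.38). Neither Ntf3 probe set passed between 24 h and 4 h in cortex of either side. On E03082cds_s_at, 0 of 8 ipsilateral and 0 of 8 contralateral arrays at 24 h were above the floor, so a fall there could not have been seen at this floor. With no floor and 16 added to each signal, its log2 difference between 24 h and 4 h in ipsilateral cortex was -1.37, with limma adjusted p = 0.00197.

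Over the 6 groups the order of mean log2 levels of M34643_at was contralateral hippocampus, ipsilateral hippocampus, contralateral and ipsilateral cortex at 24 h, then contralateral and ipsilateral cortex at 4 h. The step between ipsilateral hippocampus and contralateral cortex at 24 h, 1.34 on the log2 scale, was the only step between neighbours larger than their SDs. The cortical arrays at 4 h were the most scattered, with log2 SDs of 0.60 (ipsilateral) and 0.82 (contralateral), against 0.26 and 0.18 at 24 h.

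**Figure D2:**
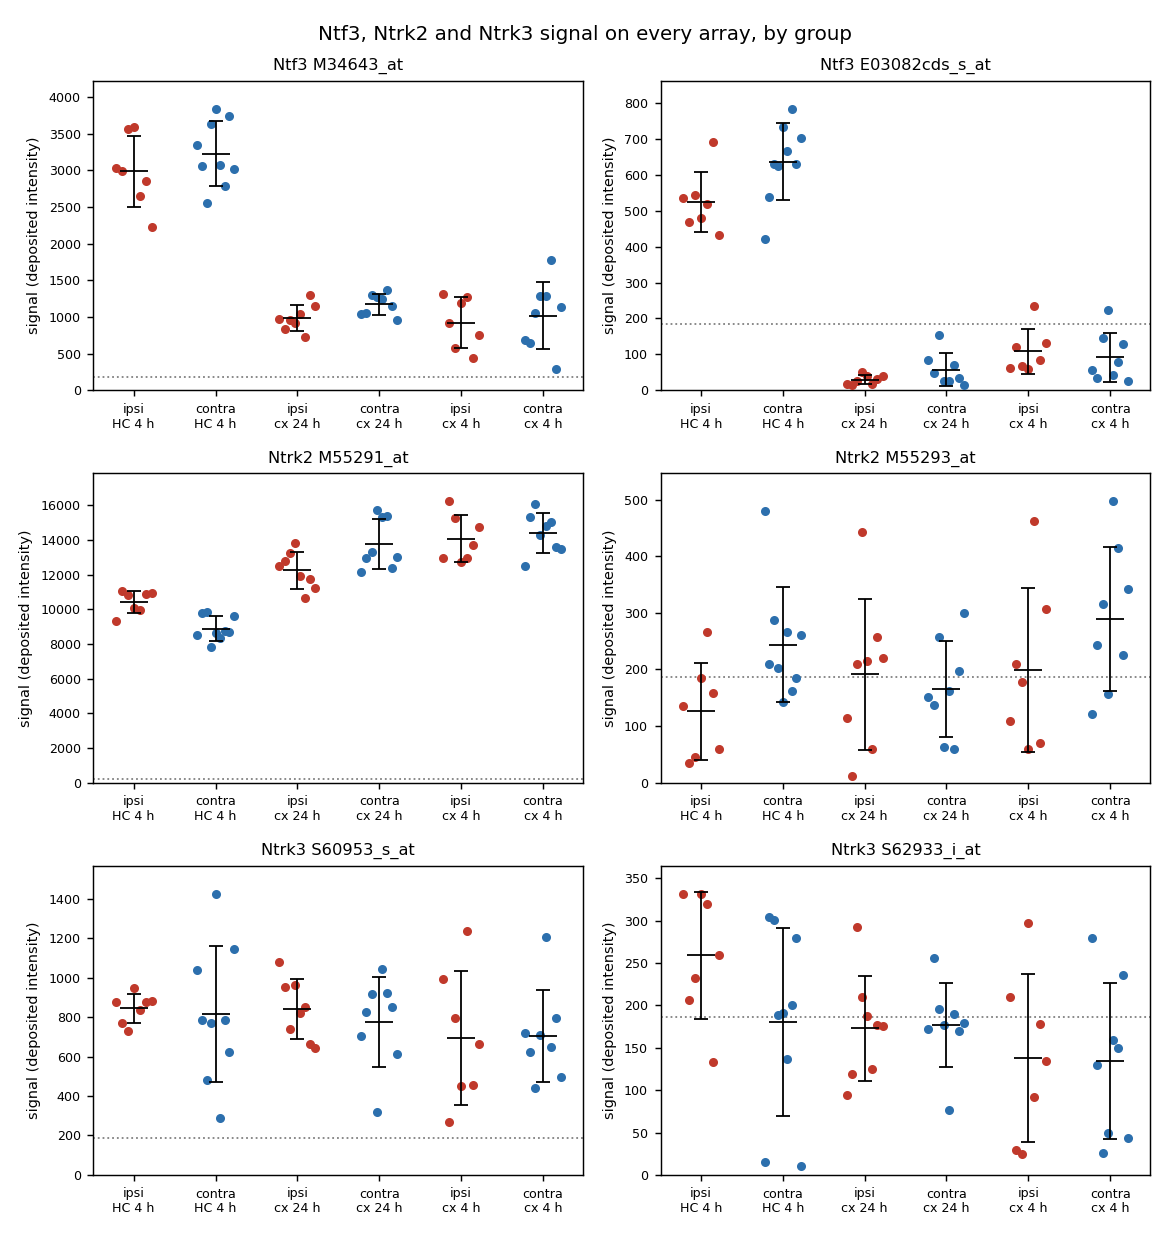
Signal (deposited intensity, linear axis) of the 6 probe sets of Ntf3, Ntrk2 and Ntrk3 on each array, in ipsilateral (red) and contralateral (blue) groups; bars are mean ± SD and the dotted line is the floor of 185.8. The hippocampal arrays (HC) stand above all cortical arrays (cx) for both Ntf3 probe sets, and below all cortical arrays of the same side and hour for Ntrk2 M55291_at.

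Bdnf, measured by 7 probe sets, gave no single answer. Its largest change was on rc_AI030286_s_at in ipsilateral cortex, where the signal at 24 h was about 2-fold that at 4 h. This probe set measured 653 to 1139 (median 825) in ipsilateral cortex at 24 h, against 272 to 554 (median 424) at 4 h. All 8 arrays at 24 h lay above the highest of the 7 arrays at 4 h. This amounted to 1.13 on the log2 scale (SE 0.19, 2.19-fold, limma adjusted p = 3.32e-05). With a floor at the median of all values the difference still passed but was 0.23 (limma adjusted p = 0.0145). The other 6 Bdnf probe sets gave -0.23 to 0.25 in the same comparison, and none of them passed.

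In contralateral cortex rc_AI030286_s_at measured 354 to 986 (median 684) at 24 h, against 365 to 569 (median 464) at 4 h. The groups overlapped, with 5 of 8 arrays at 24 h above the highest at 4 h and 1 below the lowest. The log2 difference was 0.42 (95% interval 0.05 to 0.80, limma adjusted p = 0.102), and it passed when array 47, the lowest at 24 h, was left out (0.54, limma adjusted p = 0.0306). X67108_at gave a like value there, 0.43 (95% interval 0.05 to 0.81, limma adjusted p = 0.104). It measured 318 to 442 (median 352) at 24 h, against 127 to 381 (median 281) at 4 h. Both are values that did not pass. The Gapdh 3' to 5' ratio was 1.04 to 1.15 in contralateral cortex at 24 h, against 1.14 to 1.35 at 4 h. Its part in these values was not tested.

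Between the sides at 24 h rc_AI030286_s_at was higher in ipsilateral than in contralateral cortex by 0.48 on the log2 scale (95% interval 0.10 to 0.85), with 7 of 8 ipsilateral arrays above the contralateral median, but the limma adjusted p was 0.476. At 4 h the difference was -0.23 (95% interval -0.62 to 0.16, limma adjusted p = 0.841). The change of the side difference with time was 0.71 (95% interval 0.17 to 1.25, unadjusted p = 0.0109, limma adjusted p = 0.799), and 0 of 13 member probe sets passed there, as did 0% of all probe sets. A rise on the ipsilateral side that exceeds the contralateral one was therefore not shown. Several values moved with the time comparison. The Gapdh 3' to 5' ratio, a measure of RNA integrity, was 1.04 to 1.14 in ipsilateral cortex at 24 h, against 1.08 to 1.33 at 4 h. Of 7 microglia and macrophage markers 1 was past the threshold, against 19.3% of all tested probe sets. The summed signal of these markers was 5804 to 25771 at 24 h, against 5725 to 10425 at 4 h. The 24 h arrays split in this sum: arrays 33 to 36 lay at 5804 to 7297, inside the 4 h range, and arrays 37 to 40 at 17561 to 25771. On rc_AI030286_s_at arrays 33 to 36 were at 734, 691, 1139 and 802, and arrays 37 to 40 at 1092, 848, 653 and 1102, so all 8 were above the 4 h arrays. The part of the Gapdh ratio and of the markers in the size of the Bdnf difference was not tested.

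In hippocampus against cortex at 4 h on the ipsilateral side, 2 of the 7 Bdnf probe sets passed, both as higher. Of the 7, 4 had a higher and 3 a lower hippocampal mean, with log2 differences of -0.15 to 0.83. D10938exon_s_at, the brightest Bdnf probe set on average, measured 1094 to 1628 (median 1137) in ipsilateral hippocampus, against 596 to 951 (median 771) in ipsilateral cortex. All 7 hippocampal arrays lay above all 7 cortical arrays. Hippocampus exceeded cortex by 0.70 on the log2 scale (SE 0.23, 1.62-fold, limma adjusted p = 0.0211), and it did not pass without array 17, the highest hippocampal array (limma adjusted p = 0.0517), with quantile normalization (0.56, limma adjusted p = 0.079) or with the covariate for low signals (0.64, limma adjusted p = 0.056). On rc_AI030286_s_at the hippocampal arrays measured 548 to 1004 (median 642), against 272 to 554 (median 424) in cortex, with 6 of 7 above the highest cortical array. That difference was 0.83 (SE 0.20, 1.78-fold, limma adjusted p = 0.0012). With a floor at the median of all values it was 0.096 and did not pass (limma adjusted p = 0.356). It rests on the same ipsilateral cortical arrays at 4 h as the time difference above, which were the lowest of the 6 groups on this probe set.

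On the contralateral side all 7 Bdnf probe sets were higher in hippocampus than in cortex, by 0.05 to 0.55 on the log2 scale, but only S71201mRNA_at passed (0.53, SE 0.20, limma adjusted p = 0.04). This dim probe set measured 147 to 626 (median 280) in contralateral hippocampus, where 7 of 9 arrays were above the floor, against 48.6 to 290 (median 93.4) in contralateral cortex, where 1 of 8 was. Array 23 was its highest value, and without it the difference was 0.39 (limma adjusted p = 0.12). Leaving out any of another 10 single arrays ended the call. So did quantile normalization, no filter on dim probe sets, the compared groups alone, array quality weights and the covariate for low signals, with limma adjusted p of 0.0515 to 0.107. D10938exon_s_at gave 0.27 there (95% interval -0.16 to 0.70) and rc_AI030286_s_at 0.24 (95% interval -0.12 to 0.60). Array 14 of contralateral cortex was at a signal of 138 on D10938exon_s_at, against 768 to 1265 on the other 7 arrays of its group. The same array had the group's highest signal on the Bdnf probe sets S76799_at (1440) and S76758_i_at (708).

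Between the sides of the hippocampus no Bdnf probe set passed, and 4 of the 7 had a higher and 3 a lower ipsilateral mean. The widest values were 0.36 on rc_AI030286_s_at (95% interval -0.02 to 0.74, limma adjusted p = 0.182) and -0.54 on S71196mRNA_s_at (SE 0.23, limma adjusted p = 0.103). S71196mRNA_s_at measured 58.4 to 322 (median 142) in ipsilateral hippocampus, against 42.2 to 493 (median 335) in contralateral hippocampus. All 7 ipsilateral arrays lay below the contralateral median, and only 3 of them were above the floor. S71201mRNA_at gave -0.41 (limma adjusted p = 0.176), and passed with a lower floor at the 10th percentile (-1.28, limma adjusted p = 0.035) and without array 22 (-0.61, limma adjusted p = 0.0275). D10938exon_s_at gave 0.25 (95% interval -0.19 to 0.70), with all 7 ipsilateral arrays above the contralateral median.

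Over the 6 groups the order of mean log2 levels of D10938exon_s_at was ipsilateral and contralateral hippocampus, ipsilateral cortex at 24 h, contralateral cortex at 4 h, contralateral cortex at 24 h and ipsilateral cortex at 4 h. No step between neighbours was larger than their SDs. The remaining Bdnf probe sets passed nowhere. S76799_at measured 189 to 1440 over all arrays with log2 differences of at most 0.47 in size in the side, time and region comparisons, and S76758_i_at measured 136 to 708.

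**Figure D3:**
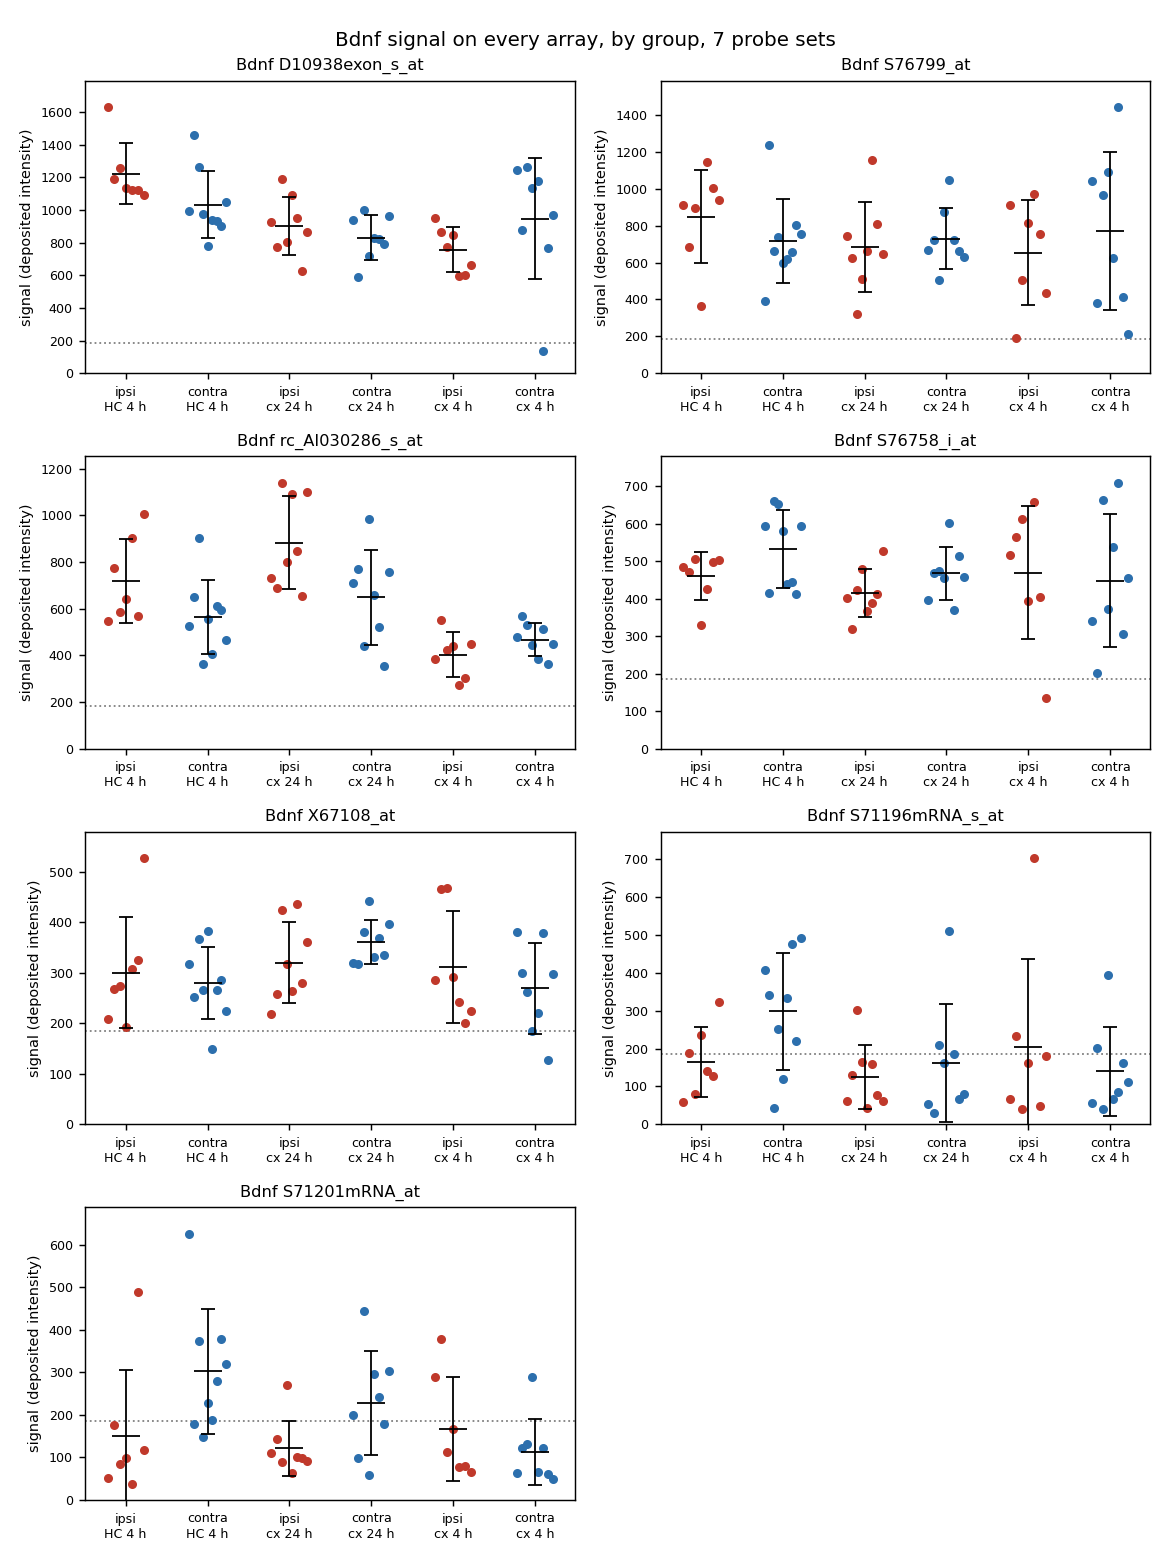
Signal (deposited intensity, linear axis) of the 7 Bdnf probe sets on each array, in ipsilateral (red) and contralateral (blue) groups of hippocampus (HC) and cortex (cx); bars are mean ± SD and the dotted line is the floor of 185.8. On rc_AI030286_s_at the ipsilateral cortical arrays sit at 653 to 1139 at 24 h and at 272 to 554 at 4 h, a pattern that the panels of the other 6 probe sets do not show.

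Agreement between probe sets of a gene was measured on deviations from the group means over the 47 arrays, so that the groups themselves do not create it. Of 24 same-gene pairs 1 passed: Bdnf X67108_at with rc_AI030286_s_at. Its Pearson r was 0.53 (permutation p = 0.00014, adjusted over the 24 pairs 0.00336) and its Spearman rho 0.51 (permutation p = 0.00022, adjusted 0.00528). Without the 2 arrays farthest from the median r was 0.50. Both signals of a pair come from the same hybridisation, so they also share the array's own deviations. Over the other 20 Bdnf pairs r ran from -0.19 to 0.34. The Ntf3 pair had r = 0.12 within groups (permutation p = 0.393, adjusted 0.745), and E03082cds_s_at was above the floor on only 18 of the 47 arrays. The Ntrk2 pair had r = 0.11 and the Ntrk3 pair r = -0.07.

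Ntrk2, the TrkB gene, was lower in hippocampus than in cortex on both sides at 4 h. M55291_at measured 9307 to 11040 (median 10833) in ipsilateral hippocampus, against 12725 to 16235 (median 13692) in ipsilateral cortex. It measured 7798 to 9858 (median 8695) in contralateral hippocampus, against 12472 to 16102 (median 14552) in contralateral cortex. The ranges did not overlap on either side. On the log2 scale the difference was -0.43 on the ipsilateral side (SE 0.07, limma adjusted p = 3.09e-06) and -0.70 on the contralateral side (SE 0.06, limma adjusted p = 1.23e-12), where hippocampus was 1.62-fold lower than cortex.

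Within the hippocampus the same probe set was slightly higher on the ipsilateral side. Its mean was 10426 ± 658 in ipsilateral and 8886 ± 713 in contralateral hippocampus (SD, n = 7 and 9), and 6 of the 7 ipsilateral values exceeded every contralateral value. The log2 difference was 0.23 (SE 0.07, 1.17-fold, limma adjusted p = 0.0131). The arrays also differed in their low signals: the 10th percentile of an array's signals was 36.4 to 56.7 in ipsilateral hippocampus, against 45.8 to 98.9 in contralateral hippocampus. With that percentile as a covariate the difference was 0.24 with a limma adjusted p of 0.239. In that fit 0 of 13 member probe sets passed in this comparison. The share of all probe sets that passed with the covariate is not given here, so this count is no result about these genes. Of 6 endothelial and mural markers 2 were lower in ipsilateral hippocampus (summed signal 9721 to 13671 there, against 9164 to 13424 on the contralateral side), while 0 of 8 astrocyte markers passed. Over all tested probe sets 16.1% passed in this comparison in the main fit.

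In ipsilateral cortex M55291_at was lower at 24 h, with 10647 to 13833 (median 12217) at 24 h, against 12725 to 16235 (median 13692) at 4 h. Of the 8 arrays at 24 h, 5 lay below the lowest at 4 h. The log2 difference was -0.20 (SE 0.07, limma adjusted p = 0.0269), and leaving out array 3, 4, 8, 38 or 40 ended the call (adjusted p up to 0.0889), as did quantile normalization (-0.17, adjusted p = 0.0806) and the compared groups alone (adjusted p = 0.056). Arrays 37 to 40, those with the high microglia and macrophage sums, measured 11905, 10647, 11773 and 11255 on M55291_at, and arrays 33 to 36 measured 12528, 12764, 13256 and 13833. The part of those markers in this difference was not tested. In contralateral cortex it was -0.07 (95% interval -0.20 to 0.06). At 24 h the ipsilateral mean was below the contralateral one by a log2 difference of -0.17 (95% interval -0.30 to -0.04, unadjusted p = 0.0128, limma adjusted p = 0.47), with 6 of 8 ipsilateral arrays below the contralateral median. At 4 h the side difference was -0.03 (95% interval -0.17 to 0.10).

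The difference between the hippocampal and the cortical side difference at 4 h was 0.26 for M55291_at (SE 0.09, limma adjusted p = 0.0921). In this comparison 0 of 13 member probe sets passed, against 4.18% of all. Over the 6 groups the order of mean log2 levels of M55291_at was contralateral and ipsilateral cortex at 4 h, contralateral and ipsilateral cortex at 24 h, then ipsilateral and contralateral hippocampus. The first 3 of these did not differ beyond their SDs, and each of the 3 later steps, of 0.17 to 0.23 on the log2 scale, was larger than the SDs of its neighbours. Of 8 astrocyte markers, which bear on the short form of TrkB, 3 were higher and 2 lower in ipsilateral hippocampus than in ipsilateral cortex. Their summed signal was 145258 to 171569 in ipsilateral hippocampus, against 159478 to 196191 in ipsilateral cortex at 4 h, and 8 of 8 were above the floor on all arrays. On the contralateral side 3 were higher and 1 lower. Between regions 27.5% of all tested probe sets passed on the ipsilateral and 33.7% on the contralateral side. The part of the astrocyte markers in the Ntrk2 difference was not tested.

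The second Ntrk2 probe set, M55293_at, was dim. It measured 33.8 to 266 (median 135) in ipsilateral hippocampus, where 1 of 7 arrays was above the floor, against 142 to 480 (median 209) in contralateral hippocampus, where 6 of 9 were. It passed in no comparison, and its log2 differences ran from -0.45 to 0.14 in the side, time and region comparisons. In the hippocampal side comparison its value was -0.29 (95% interval -0.71 to 0.12), opposite in sign to that of M55291_at. The annotation does not say which form of the receptor transcript either probe set reports.

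Ntrk3, the TrkC gene, passed in none of the 9 comparisons. S60953_s_at measured 730 to 948 (median 875) in ipsilateral hippocampus, against 290 to 1427 (median 786) in contralateral hippocampus. It measured 646 to 1078 (median 837) in ipsilateral cortex at 24 h, against 317 to 1044 (median 839) in contralateral cortex at 24 h. At 4 h it measured 268 to 1239 (median 665) in ipsilateral and 442 to 1208 (median 678) in contralateral cortex. All groups overlapped, and no step in the order of the group means exceeded the SDs of its neighbours. The widest log2 differences were 0.44 between ipsilateral hippocampus and ipsilateral cortex (95% interval -0.11 to 0.99, limma adjusted p = 0.247) and 0.41 between 24 h and 4 h in ipsilateral cortex (95% interval -0.12 to 0.95, limma adjusted p = 0.299). These intervals still hold changes close to 2-fold.

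The dim Ntrk3 probe set S62933_i_at came close to the threshold in 1 comparison. It measured 133 to 332 (median 259) in ipsilateral hippocampus, with 6 of 7 arrays above the floor, against 24.3 to 297 (median 135) in ipsilateral cortex at 4 h, with 2 of 7. It amounted to 0.37 on the log2 scale (95% interval 0.07 to 0.66, limma adjusted p = 0.0541). It passed with quantile normalization (0.44, limma adjusted p = 0.0212), with no intensity trend in the model (limma adjusted p = 0.047) and without any 1 of 7 arrays (adjusted p down to 0.0147). With the covariate for low signals it was 0.28 (limma adjusted p = 0.191).

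Other ligands and receptors of the family were represented by 3 of 9 listed genes, and none passed between the sides of the cortex. Over all tested probe sets 0% passed there at 4 h and 0.107% at 24 h. Ngfr, the p75 receptor that binds all neurotrophins, fell in ipsilateral against contralateral hippocampus by a log2 difference of -0.58 (SE 0.20, limma adjusted p = 0.0403). It was higher in contralateral hippocampus than in contralateral cortex (0.68, limma adjusted p = 0.00478) and gave 0.10 on the ipsilateral side (limma adjusted p = 0.779). Ntf4, which encodes neurotrophin-4, another ligand of TrkB, was lower in contralateral cortex at 24 h than at 4 h (-0.45, limma adjusted p = 0.0373) and lower in contralateral hippocampus than in contralateral cortex (-0.40, limma adjusted p = 0.0436). Sort1, the proneurotrophin receptor sortilin, passed in none of the 9 comparisons. Its largest value was 0.44 for the difference of the side differences between regions, and in time it gave 0.41 in ipsilateral cortex (limma adjusted p = 0.0857). Between the sides of the hippocampus 399 of all tested probe sets passed as higher and 808 as lower on the ipsilateral side. The covariate for low signals left 0 member calls there, and its share of all probe sets is not given here. List genes, here and below, are given from the main fit only, so their hippocampal side calls carry no result with that covariate.

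Of 10 tested genes that process or degrade neurotrophins, 0 passed between the sides of the cortex. Between the sides of the hippocampus, where 16.1% of all tested probe sets passed, 2 rose and 1 fell on the ipsilateral side. Furin, a proprotein convertase, rose by a log2 difference of 0.33 and Plat, the tissue plasminogen activator, by 0.43, while the matrix protease Mmp7 gave -1.08. Between 24 h and 4 h Furin rose in ipsilateral cortex (0.37), and Bsg, an inducer of matrix proteases, was lower in ipsilateral (-0.49) and contralateral cortex (-0.47). In ipsilateral hippocampus 2 were higher than in ipsilateral cortex, Furin (0.48) and the convertase gene Pcsk6 (0.77), and Bsg was lower (-0.53). In contralateral hippocampus Mmp7 was higher than in contralateral cortex (0.80), and Bsg (-0.46) and the convertase gene Pcsk2 (-0.24) were lower. The list's median log2 difference was 0.06 in the hippocampal side comparison, against -0.04 over all probe sets. Between 24 h and 4 h, 19.3% of all tested probe sets passed in ipsilateral and 21.5% in contralateral cortex. Between regions 27.5% passed on the ipsilateral and 33.7% on the contralateral side.

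Among 34 tested genes of Trk signalling, 0 passed between the sides of the cortex. Between the sides of the hippocampus, where 16.1% of all tested probe sets passed, 1 rose and 3 fell on the ipsilateral side. Prkcb, a protein kinase C, rose (0.25), and the adaptor Grb2 (-0.28), the GTPase Nras (-0.59) and the phospholipase Plcg2 (-0.66) fell. In ipsilateral hippocampus 9 were higher and 1 lower than in ipsilateral cortex, among them the kinases Prkca (1.23) and Map2k1 (0.41). In contralateral hippocampus 11 were higher and 6 lower. Between regions 27.5% of all tested probe sets passed on the ipsilateral and 33.7% on the contralateral side. Between 24 h and 4 h, 6 rose and 3 fell in ipsilateral cortex, against 19.3% of all. In contralateral cortex 6 rose and 6 fell, against 21.5% of all. The GTPase Rap1b rose in both, by 0.65 in ipsilateral and 0.79 in contralateral cortex.

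Of 14 tested regulators of Bdnf transcription, 0 passed between the sides of the cortex. Between the sides of the hippocampus, where 16.1% of all tested probe sets passed, 1 rose and 1 fell on the ipsilateral side. These were Egr1, an activity-induced transcription factor (0.56), and Mef2d, a neuronal MADS-box factor (-0.56). Between 24 h and 4 h, 4 rose and 0 fell in ipsilateral cortex, among them Egr2 (1.04), the histone deacetylase Hdac2 (0.71) and the glucocorticoid receptor Nr3c1 (1.01). In contralateral cortex 4 rose and 0 fell, among them Hdac2 (0.72) and Egr2 (0.83). Over all tested probe sets 19.3% passed in time in ipsilateral and 21.5% in contralateral cortex. Between hippocampus and cortex 3 were higher and 4 lower on the ipsilateral side, against 27.5% of all. On the contralateral side 4 were higher and 2 lower, against 33.7% of all. Nr3c2, the mineralocorticoid receptor, gave 1.57 on the ipsilateral and 1.88 on the contralateral side. The CREB gene Creb1 passed in no side comparison.

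Of 25 tested genes that BDNF is known to regulate, 0 passed between the sides of the cortex. Between the sides of the hippocampus, where 16.1% of all tested probe sets passed, 4 rose and 2 fell on the ipsilateral side. Nptx1, a pentraxin of synapses, rose by 0.64 (limma adjusted p = 0.00101), Egr1 by 0.56, Klf10 by 0.52 and the secreted neuropeptide precursor Vgf by 0.29. Bcl2, a survival gene, gave -0.83 and Egr4 -0.79. In ipsilateral hippocampus 3 were higher and 12 lower than in ipsilateral cortex, with a list median of -0.36, against 0.01 over all probe sets. In contralateral hippocampus 3 were higher and 10 lower than in contralateral cortex. Between regions 27.5% of all tested probe sets passed on the ipsilateral and 33.7% on the contralateral side. Those lower on both sides included Arc (-1.10 ipsilateral and -0.93 contralateral), Egr1 (-0.88 and -1.51), the phosphatase gene Dusp1 (-0.995 and -1.56) and the orphan receptor Nr4a1 (-1.08 and -1.20), all immediate early genes of neurons. Of the 7 Bdnf probe sets, 0 were lower past the threshold in hippocampus on either side. Between 24 h and 4 h, 5 rose and 2 fell in ipsilateral cortex, against 19.3% of all. In contralateral cortex 6 rose and 2 fell, against 21.5% of all. Of 9 other growth factor genes tested, 0 passed in the 3 side comparisons, where 0% to 16.1% of all tested probe sets passed. Vegfa was higher in hippocampus than in cortex on the ipsilateral (0.46) and contralateral side (0.33).

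The genes whose log2 signal was most like each member's over the 47 arrays were named from the brightest probe set of each gene, as a description. Ntf3 M34643_at was most like Gria1, an AMPA receptor subunit that is also on the hippocampal marker list (r = 0.91), Bok, a Bcl-2 family member (0.91), and Wipf3 (0.90). Ntrk2 M55291_at was most like Cx3cl1, the chemokine fractalkine (0.88), Camk2n1, an inhibitor of CaM kinase (0.88), and the potassium channel Kcnk1 (0.88). With the group means removed, these 6 correlations were 0.28 to 0.51. Bdnf D10938exon_s_at was most like Ctdsp1 (0.61), Kifc3 (0.61) and the cell adhesion gene Cntn2 (0.60), with 0.60, 0.58 and 0.76 once the group means were removed. Ntrk3 S60953_s_at was most like the connexin gene Gja4 (0.50), Prkar1a, a regulatory subunit of protein kinase A (0.48), and Vat1 (0.48), with 0.46 to 0.47 once the group means were removed. The arrays of a group share region, side and hour.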

How the data were processed

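RNA from 47 samples was measured on oligonucleotide arrays. The deposited values are intensities, 1 per probe set, not log-transformed. No source used here states how the authors summarised probes or scaled arrays. The 2%-trimmed means of the arrays ran from 2503 to 2504, so the deposited intensity was kept. Values were floored at the 25th percentile and transformed to log2. Probe sets above this floor on at least 7 arrays, without 59 control probe sets, left 7503.

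A linear model of 6 group means (R 4.3.3, limma 3.58.1, eBayes with an intensity trend) gave 9 two-sided comparisons, each adjusted over 7503 probe sets. Array numbers occur once each, so no block was used. The procedure was tested on simulated data. Gene names came from the platform's annotation, updated by gene ID, which matched for 6104 of 6122 tested single-symbol probe sets. Pairs of probe sets were compared with 100000 permutations. All member probe sets were described; list genes past the threshold were named, up to 4 per direction in time and region comparisons, and list genes are represented by their brightest tested probe set. Similar genes were the 3 with the highest r. The members, gene lists, tests and alternatives were chosen with earlier results of these data known. The number of arrays limits the precision.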

Additional observations from a re-analysis of the deposited data

Results flagged for a closer look

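In 16 of 78 combinations of a probe set and a group, 1 array stood far from the rest of its group by Dixon's criterion at its 95% critical value. Chance exceeds it in about 1 in 20 groups of normally distributed values. The criterion was applied to linear signals, which need not be normal, so the 16 are not to be read against that rate. Among well-measured probe sets, Bdnf D10938exon_s_at was at 138 on array 14 of contralateral cortex at 4 h (the others 768 to 1265) and at 1628 on array 17 of ipsilateral hippocampus (the others 1094 to 1260). Bdnf S76799_at was at 1236 on array 25 of contralateral hippocampus (the others 393 to 802), and Bdnf X67108_at at 527 on array 24 of ipsilateral hippocampus (the others 194 to 326). Ntrk3 S60953_s_at was at 1208 on array 13 of contralateral cortex at 4 h (the others 442 to 796).

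The remaining 11 were single high values on dim probe sets. Bdnf S71196mRNA_s_at was at 702 on array 6 of ipsilateral cortex at 4 h (the others up to 233), 301 on array 35 of ipsilateral cortex at 24 h (up to 165), 396 on array 12 of contralateral cortex at 4 h (up to 202) and 510 on array 45 of contralateral cortex at 24 h (up to 210). Bdnf S71201mRNA_at was at 489 on array 22 of ipsilateral hippocampus (up to 177), 626 on array 23 of contralateral hippocampus (up to 378), 271 on array 36 of ipsilateral cortex at 24 h (up to 144) and 290 on array 12 of contralateral cortex at 4 h (up to 131). Ntf3 E03082cds_s_at was at 691 on array 22 of ipsilateral hippocampus (up to 543) and at 235 on array 6 of ipsilateral cortex at 4 h (up to 130). Ntrk2 M55293_at was at 480 on array 23 of contralateral hippocampus (up to 288). Arrays 6, 12, 22 and 23 each stood out on 2 probe sets.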

How the results depend on the processing

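Among 6606 recomputed differences 0 that passed changed sign, while 160 that passed in neither setting did. The region differences of Ntf3 M34643_at and Ntrk2 M55291_at and the rise of Bdnf rc_AI030286_s_at in ipsilateral cortex passed in every alternative run, the last with 0.23 to 1.13 outside the fits without 1 array. With a floor at the median, Ntf3 E03082cds_s_at, Ntrk2 M55293_at and Ntrk3 S62933_i_at were too dim to be tested. So were Bdnf S71196mRNA_s_at, S71201mRNA_at, S76758_i_at and X67108_at. Part of the fall in counts at that floor therefore comes from probe sets no longer tested. Counts of member probe sets past the threshold changed as follows. The shares of all probe sets in these alternatives are not given, so the counts describe the member calls only. For the sides of the hippocampus the count of 2 became 1 with a floor at the median, 1 with quantile normalization, 1 with the compared groups alone and 0 with a covariate for each array's low signals (its 10th percentile), and 1 to 3 without 1 array. It was 2 with a lower floor or none, with Bdnf S71201mRNA_at gained and Ntf3 E03082cds_s_at lost. For time in ipsilateral cortex the count of 2 became 1 with quantile normalization and 1 with the compared groups alone, and 1 to 2 without 1 array, where M55291_at was the call lost, and it was 3 with a floor at the 10th percentile and with no floor, where E03082cds_s_at was gained. For time in contralateral cortex the count of 0 became 0 to 1 without 1 array. For region the ipsilateral count of 5 became 3 and the contralateral count of 4 became 2 with a floor at the median, which lifts dim signals; rc_AI030286_s_at lost its ipsilateral call there. They were 4 to 6 and 3 to 5 without 1 array. Over the other alternatives they ran from 4 to 6 and from 3 to 4. For the difference of the side differences between regions the count of 0 became 1 with a floor at the median (D10938exon_s_at, 0.56) and 0 to 1 without 1 array; array 14 made that call (0.74, adjusted p = 0.0223). D10938exon_s_at lost its ipsilateral region call with quantile normalization (adjusted p = 0.079) and with the covariate (0.056). Other causes were not tested. The count of 1 agreeing pair of probe sets was 1 in the 3 alternatives run. No paired analysis was possible because the array numbers occur once each and tie no samples across groups. Signal over background limits 5 of the 13 probe sets.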

Other observations

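Other growth factors and cell markers on the array gave the following values. Of 9 growth factor genes, Vegfa, the vascular endothelial growth factor, rose in ipsilateral cortex at 24 h against 4 h (log2 difference 0.34, limma adjusted p = 0.0209). Fgf2, a fibroblast growth factor, was higher in contralateral hippocampus than in contralateral cortex (0.83, limma adjusted p = 0.00538), as was Igf1 (0.37, limma adjusted p = 0.00754). Cntf, the ciliary neurotrophic factor, was lower in ipsilateral hippocampus than in ipsilateral cortex (-0.52, limma adjusted p = 0.0248).

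Of 7 interneuron markers 2 were higher and 4 lower in hippocampus than in cortex, on the ipsilateral and on the contralateral side alike in number. Of 6 oligodendrocyte markers 3 were higher and 1 lower in ipsilateral hippocampus than in ipsilateral cortex, and 0 passed on the contralateral side by limma. Between regions 27.5% of all tested probe sets passed on the ipsilateral and 33.7% on the contralateral side. In ipsilateral against contralateral cortex at 24 h, 1 of 7 microglia and macrophage markers passed, against 0.107% of all tested probe sets. All 7 had higher ipsilateral means, with a median log2 difference of 0.56. Arrays 37 to 40 of the ipsilateral group stood apart, with summed signals of 17561 to 25771, while arrays 33 to 36 had 5804 to 7297 and the contralateral arrays 4836 to 9127.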
